A study of Mus musculus with 6 samples.

Results

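The 10 genes described here are markers of intestinal stem cells, taken by name from the 24190 genes of the count table and matched to it by their GENCODE symbols, and each of the 10 matched a single gene. They were Lgr5, Ascl2, Olfm4, Smoc2, Prom1 and Slc12a2 for the crypt base, Bmi1, Hopx and Lrig1 for reserve cells, and Msi1, which has been described in both positions and was placed in neither group. The question was whether crypt base and reserve markers moved alike under chemotherapy. RNA was sequenced in 6 samples of MTO54, organoids grown from a mouse colorectal tumor (MTOs) with the AKP genotype in treated and control samples alike. All samples thus come from 1 organoid line. The organoids were grown from single cells in basement membrane extract in complete stem cell medium, and 2 days after seeding 3 samples received fresh medium (control) and 3 received Folfiri, 5FU at 50 μg/μl in the unit that the labels give, plus SN38 at 100 nM, for 2 days. This duration is that of the labels and methods, and a figure legend of the study names a longer one, so that the length of treatment behind the values is uncertain. 5FU blocks thymidylate synthesis, and SN38, the active form of irinotecan, inhibits topoisomerase I.

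The crypt base of the intestine holds slender columnar cells that divide often and renew the epithelium, and Wnt signaling strengthened by R-spondins keeps them in the stem cell state. Above them lie cells that have been proposed as a reserve, which divide less and can repopulate the crypt after the columnar cells are lost to radiation or drugs. Loss of Apc switches on the Wnt pathway without a ligand, and tumor cells with the crypt base program are known from colorectal cancer. Several reserve markers are also transcribed in the columnar cells, so that at the level of RNA the 2 marker groups are not exclusive.

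Reads on genes ranged from 22103591 to 30098210 per sample. Within the controls replicate 1 stood apart, with a chi-square per degree of freedom over genes of 23.7 and 22.4 against the others and 3.84 between those. Folfiri replicate 3 stood apart likewise, at 12.3 and 11.9 against 3.55. Levels are given as CPM, counts relative to a fixed library total, scaled with TMM factors, and changes as log2 fold changes of Folfiri over control from edgeR's quasi-likelihood test, with Benjamini-Hochberg adjustment over the 14692 genes that passed its expression filter. Folfiri changed most of the transcriptome, and 79.1% of all genes tested passed an adjusted p of 0.05, 40.3% higher and 38.8% lower. Of the genes called, 51.0% were higher, and 63.3% with scaling by total counts only, against which counts under that scaling are to be read. Of 7 tested epithelial genes 4 were lower and 1 was higher with Folfiri, 3 and 1 with scaling by total counts only, and the part of this in the marker values was not tested. Epcam fell from 1252 ± 145 to 653 ± 14.4 CPM (log2 fold change -0.94), the intestinal homeobox gene Cdx2 from 157 ± 6.88 to 54.5 ± 0.753 CPM (-1.53), and Krt19 (-0.62) and Krt8 (-0.27) fell as well, Krt8 without a call under total counts (0.0047). Cdh1 rose from 679 ± 25.8 to 786 ± 45.7 CPM (0.21; SD, n = 3 each), and Krt18 (-0.18) and Vil1 (-0.11) did not pass. Cdx1, another intestinal homeobox gene, was near absent at 0.519 CPM in controls and 0.0108 CPM after Folfiri. Among genes of other cell types, the 7 immune markers in the table summed to between 0.668 and 0.936 CPM in controls and between 2.18 and 2.31 CPM after Folfiri, with Tyrobp and Lyz2 at or near 0. The 2 that passed the filter stood higher after Folfiri, Ptprc at 1.06 against 0.396 CPM and Adgre1 at 0.863 against 0.226 CPM. Genes this low can pass through 1 group alone, which then fixes the direction, so they are given as values. The 8 fibroblast and endothelial markers summed to between 73.6 and 125.6 CPM and to between 67.4 and 78.3 CPM. Nearly all of that sum was Cdh5, which did not pass (-0.35), while Col3a1 and Pdgfrb were at 0 in every control sample. For the same reason only values are given for Pdgfra, at 0.397 CPM in controls and 1.14 CPM after Folfiri, Dcn, at 0.0240 and 0.694 CPM, Col1a1, at 0.842 and 0.301 CPM, and Pecam1, at 0.470 and 0.459 CPM. Whether these low counts of other cell types' genes bear on the markers was not tested.

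Of the 10 markers, 9 passed the expression filter, and the call rates below are to be read against the 79.1% of all genes tested. At an adjusted p of 0.05, 6 of these 9 were lower with Folfiri, 1 was higher and 2 did not pass. The groups did not overlap for 7 of the 9, against 81.4% of all genes tested. Lgr5, Ascl2, Smoc2 and Prom1 of the crypt base fell, and Slc12a2 did not pass. Among reserve markers Hopx and Lrig1 fell and Bmi1 rose. Msi1 did not pass, and Olfm4 was too low to be tested. The median log2 fold change was -1.14 over the 5 tested crypt base markers and -1.24 over the 3 reserve markers, beside 0.02 over all genes tested, and both groups held markers that moved differently. Which group had the lower median depends on the markers counted, since the crypt base median minus the reserve median was 0.10, -0.14 with Msi1 among the reserve markers and -1.21 without Prom1 and Slc12a2, where the crypt base median was -2.46. As the RNA is bulk, fewer cells of a type and less RNA per cell cannot be told apart.

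**Figure D1:**
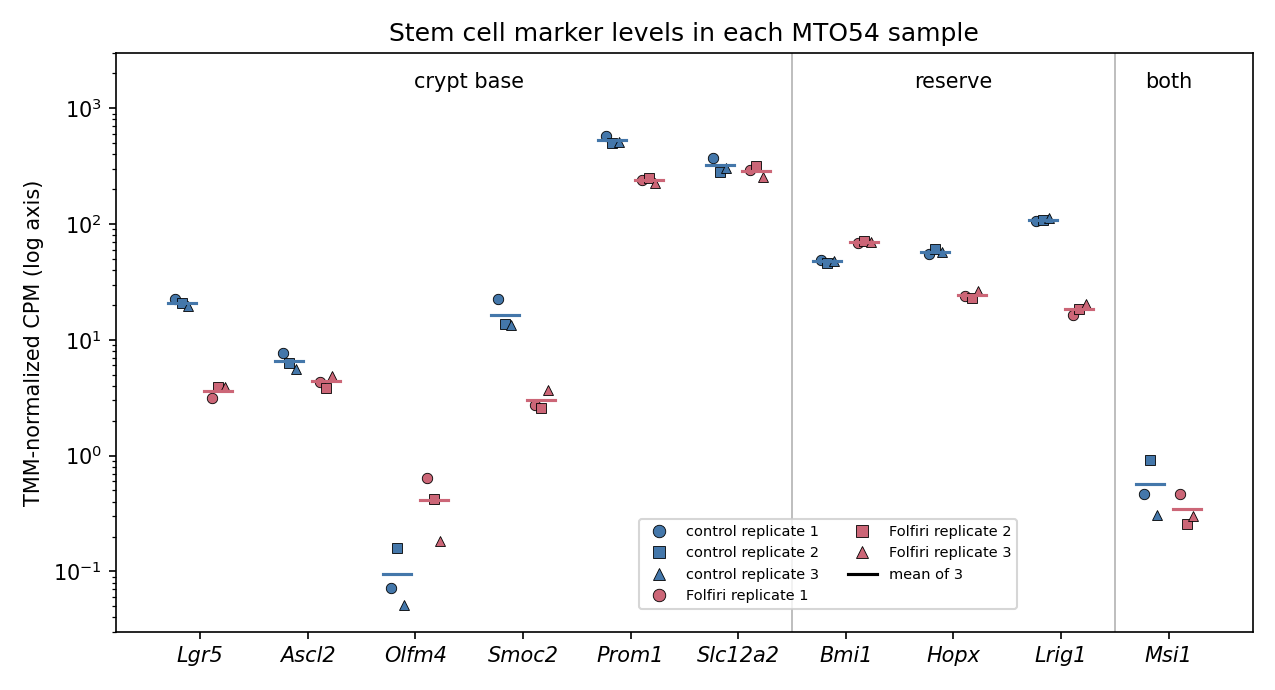
TMM-normalized CPM of the 10 markers on a log axis, with 1 point for each sample, control in blue and Folfiri in red, and a bar at the mean of 3 samples. Lgr5, Ascl2, Smoc2, Prom1, Hopx and Lrig1 lie lower in all Folfiri samples, with Ascl2 close to the controls. Bmi1 lies higher, as does Olfm4 at very few counts, and Slc12a2 and Msi1 overlap.

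Lgr5 encodes a receptor for R-spondins and is the reference marker of crypt base columnar cells. It lies on chromosome 10 of GRCm38 from 115450311 to 115587780. The 3 control samples had 626, 516 and 379 counts, or 22.5, 20.6 and 19.5 CPM. The Folfiri samples had 93, 121 and 128 counts, or 3.12, 3.91 and 3.88 CPM. Every Folfiri sample thus stood far below every control. Its log2 fold change was -2.52 (SE 0.12, adjusted p = 3.81e-08, edgeR), a 5.74-fold lower level, and 2.49% of all genes tested had a lower value.

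Smoc2, which encodes a secreted calcium-binding matrix protein of the SPARC family, lies on chromosome 17 from 14279506 to 14404790. It stood at 22.5, 13.7 and 13.4 CPM in the controls and at 2.75, 2.58 and 3.70 CPM after Folfiri. Control replicate 1 was well above the other controls, yet the groups lay far apart. The difference on the log2 scale was -2.46 (SE 0.23, adjusted p = 2.62e-06, edgeR), and it was -2.16 without control replicate 1. Lgr5 and Smoc2 therefore fell by close to the same factor.

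Ascl2 encodes a basic helix-loop-helix transcription factor, a Wnt target that sustains the identity of crypt base cells, and lies on chromosome 7 from 142966829 to 142969264. It was at 7.71, 6.36 and 5.55 CPM in the controls and at 4.36, 3.87 and 4.88 CPM after Folfiri. The groups did not overlap, but they came close, with the highest Folfiri sample just under the lowest control. The log2 fold change was -0.59 (SE 0.16, 95% interval from -0.94 to -0.24, adjusted p = 0.0053, edgeR), and 58.7% of all genes tested changed by more in either direction. With scaling by total counts only it was -0.32 and did not pass (adjusted p = 0.133), as that scaling raises the median of all genes by 0.28.

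Prom1, which encodes the membrane glycoprotein CD133 of cell protrusions, was the most abundant marker and lies on chromosome 5 from 43993620 to 44102032. It stood at 571, 500 and 509 CPM in the controls and at 240.4, 249.4 and 228 CPM after Folfiri. The samples of each group lay close together and the groups were well separated. On the log2 scale Prom1 changed by -1.14 (SE 0.08, adjusted p = 4.21e-07, edgeR), a 2.20-fold lower level.

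Slc12a2 encodes the sodium, potassium and chloride cotransporter NKCC1, which loads crypt cells with chloride for secretion, and lies on chromosome 18 from 57878678 to 57946821. It was at 374, 284 and 303 CPM in the controls and at 294, 314 and 256 CPM after Folfiri, and the groups overlapped. Its change was -0.15 on the log2 scale, with a 95% interval from -0.40 to 0.10 (adjusted p = 0.232, edgeR), so that a fall to 0.756 of the control level or a rise to 1.07 of it could not be told from no change. With scaling by total counts only the value was 0.12, and it did not pass either (adjusted p = 0.449).

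Olfm4, a secreted glycoprotein of the olfactomedin family, marks crypt base cells of the mouse small intestine. It lies on chromosome 14 from 79984081 to 80023139. It was close to absent here, with 2, 4 and 1 counts in the controls and 19, 13 and 6 counts after Folfiri. The ratio of the summed counts, scaled for library size, was 4.18, with an exact 95% interval from 1.84 to 11.1 that covers counting error only. Every Folfiri sample lay above every control, yet the mean after Folfiri was 0.413 ± 0.228 CPM (SD, n = 3). Without an expression filter its log2 fold change was 1.99 (adjusted p = 0.00414, edgeR). In 4 of the fits that left out a replicate it passed the filter through the Folfiri samples alone and stood at 1.79 to 2.59. A higher value was fixed by that selection and supports nothing. At these levels a few reads decide the value.

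Bmi1 encodes a subunit of Polycomb repressive complex PRC1 and has been proposed as a marker of cells above the crypt base. It lies on chromosome 2 from 18677018 to 18686629. Control samples held 48.7, 46.1 and 47.8 CPM and Folfiri samples 68.9, 71.9 and 70.2 CPM, with no overlap. The spread within each group was close to that of counting error alone, at a coefficient of variation of 2.84% and 2.14% against 2.96% and 2.13% from the counts. On the log2 scale the change was 0.57 (SE 0.07, adjusted p = 2.32e-05, edgeR), a 1.48-fold higher level. Among the 9 markers tested with all samples Bmi1 was the only one that rose, and 60.2% of all genes tested changed by more in either direction.

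Hopx encodes a small homeodomain protein that does not bind DNA itself, and lies on chromosome 5 from 77086988 to 77115121. It stood at 54.7, 60.3 and 57.6 CPM in the controls and at 23.7, 23.0 and 26.2 CPM after Folfiri, with no overlap between the groups. The log2 fold change was -1.24 (SE 0.08, adjusted p = 2.70e-07, edgeR), a 2.37-fold lower level. Of the annotated exonic length of Hopx, 27.2% overlaps the antisense gene Hopxos, for which no counts were recorded in any sample. The sources used here do not give the strand setting of the counting, and the part of the overlap in the Hopx value was not tested.

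Lrig1 encodes a transmembrane protein that dampens ErbB receptor signaling, and lies on chromosome 6 from 94604529 to 94700158. Its levels were 107, 108 and 112 CPM in the controls and 16.5, 18.5 and 20.3 CPM after Folfiri. The groups were far apart, and the coefficient of variation of the controls was 2.46%. The log2 fold change was -2.56 (SE 0.09, adjusted p = 5.00e-09, edgeR), a 5.90-fold lower level, and 2.36% of all genes tested had a lower value. A stretch of 144 bp, 2.58% of its exonic length, is shared with Slc25a26 on the opposite strand, which had 1289 counts summed over all samples.

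Msi1, an RNA-binding protein that represses translation of its target mRNAs, lies on chromosome 5 from 115429599 to 115455698. It had 13, 23 and 6 counts in the controls and 14, 8 and 10 counts after Folfiri, and the groups overlapped. Its log2 fold change was -0.75, with a 95% interval from -1.69 to 0.18 (adjusted p = 0.123, edgeR). The controls varied by more than counting error, with a coefficient of variation of 56.1% against 26.7% from the counts. Leaving out single replicates moved the value between -1.03 and -0.23, with the smallest fall without control replicate 2 (adjusted p = 0.637), and it passed only without control replicate 3 (-1.004, adjusted p = 0.044).

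**Figure D2:**
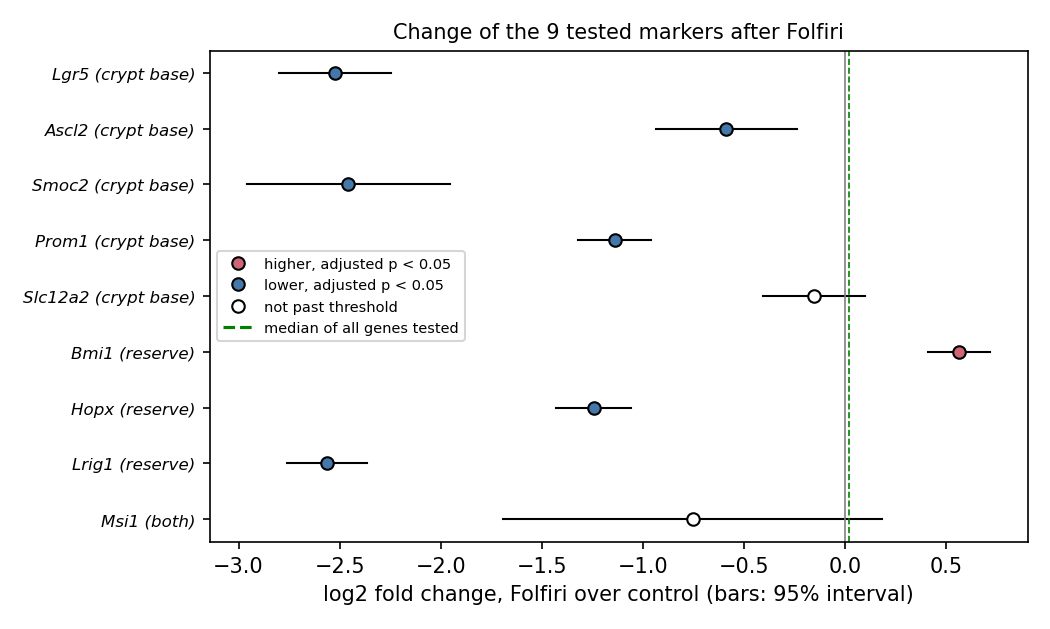
Log2 fold changes of Folfiri over control for the 9 tested markers with 95% intervals from edgeR, filled where the adjusted p was under 0.05, and a dashed line at the median of all genes tested, 0.02. Lgr5, Smoc2 and Lrig1 lie near -2.5, Prom1 and Hopx between -1.1 and -1.3, and Bmi1 alone lies above 0 with its interval.

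The reserve markers moved in opposite directions, so the promoter windows of their RefSeq entries (GRCm38.p6, 250 bases before to 50 bases after the start) are shown for the gene that rose, Bmi1, and for Lrig1 and Hopx, which fell. Of the 10 markers 6 had a window in the table, 8 windows in all, and Lgr5, Smoc2, Slc12a2 and Msi1 had none. Both strands were searched for the TCF/LEF core CTTTGAT or CTTTGAA, held by 8.65% of all 32851 windows, the E-box CAGCTG that Ascl2 can bind, held by 16.3%, and the TEAD core GGAATG, held by 14.7%. No marker window held the TCF/LEF core. Capitals mark the matches, GGAATG in the Bmi1 window from base -228 and CAGCTG in 1 of the 2 Hopx windows from base 34. The Lrig1 window has no match, and it has a GC content of 73.0% against 66.3% for Bmi1 and 53.0% for the Hopx window shown. Hopx has a further window at chr5:77095218-77095517, with a GC content of 59.0% and no match, which is not printed. A match describes letters and shows no binding. The windows are chr2:18676768-18677067 on the plus strand for Bmi1, chr6:94700096-94700395 on the minus strand for Lrig1 and chr5:77115074-77115373 on the minus strand for Hopx.
Bmi1: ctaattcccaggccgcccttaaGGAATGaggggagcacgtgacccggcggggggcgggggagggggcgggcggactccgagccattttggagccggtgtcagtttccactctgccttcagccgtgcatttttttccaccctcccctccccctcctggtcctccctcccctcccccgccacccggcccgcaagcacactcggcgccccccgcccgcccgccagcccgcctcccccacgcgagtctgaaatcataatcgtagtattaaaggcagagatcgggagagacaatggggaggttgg
Lrig1: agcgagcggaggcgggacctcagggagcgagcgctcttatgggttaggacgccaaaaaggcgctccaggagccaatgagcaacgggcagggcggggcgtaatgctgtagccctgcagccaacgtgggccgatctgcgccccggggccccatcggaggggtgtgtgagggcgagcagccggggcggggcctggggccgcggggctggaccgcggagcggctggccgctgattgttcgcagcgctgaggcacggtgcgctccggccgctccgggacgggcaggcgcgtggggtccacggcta
Hopx: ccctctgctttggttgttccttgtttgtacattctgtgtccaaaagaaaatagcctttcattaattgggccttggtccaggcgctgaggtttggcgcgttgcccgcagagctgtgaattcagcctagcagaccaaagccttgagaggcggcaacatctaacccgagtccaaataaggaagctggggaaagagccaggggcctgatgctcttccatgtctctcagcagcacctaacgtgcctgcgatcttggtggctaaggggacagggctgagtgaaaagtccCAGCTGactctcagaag

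To ask whether the 2 groups of markers moved alike, the log2 ratio of CPM was taken within each sample for pairs of tested markers. Every pair of tested crypt base or reserve markers was used, and Msi1, placed in neither group, was left out. There were 15 pairs of a crypt base over a reserve marker, 10 pairs within the crypt base and 3 within the reserve group. These pairs share genes and are a description. Over all pairs of genes tested, 79.9% had ratios whose control and Folfiri ranges did not overlap. The ranges lay apart in 12 of the 15 pairs across groups, in 8 of the 10 within the crypt base and in 3 of the 3 within the reserve group. The median absolute change of the ratio was 1.18, 1.34 and 1.81 (log2), so markers of 1 group were not closer to each other than to those of the other group by this measure.

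The most constant ratio was that of Lgr5 over Lrig1, a pair from both groups. It was -2.24, -2.39 and -2.52 (log2) in the controls and -2.40, -2.24 and -2.39 in the Folfiri samples. The ranges overlapped, and the means differed by 0.039. Smoc2 over Lrig1 changed by 0.14 and Prom1 over Hopx by 0.11, both with overlapping ranges. Lgr5 over Bmi1, in contrast, went from -1.11, -1.16 and -1.30 to -4.47, -4.20 and -4.18. Within the reserve group Bmi1 over Lrig1 went from -1.13, -1.23 and -1.23 to 2.06, 1.96 and 1.79, so that Bmi1 went from below to above Lrig1 in CPM. Within the crypt base Lgr5 over Smoc2 changed by -0.10 with overlapping ranges, whereas Lgr5 over Ascl2 changed by -1.95.

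**Figure D3:**
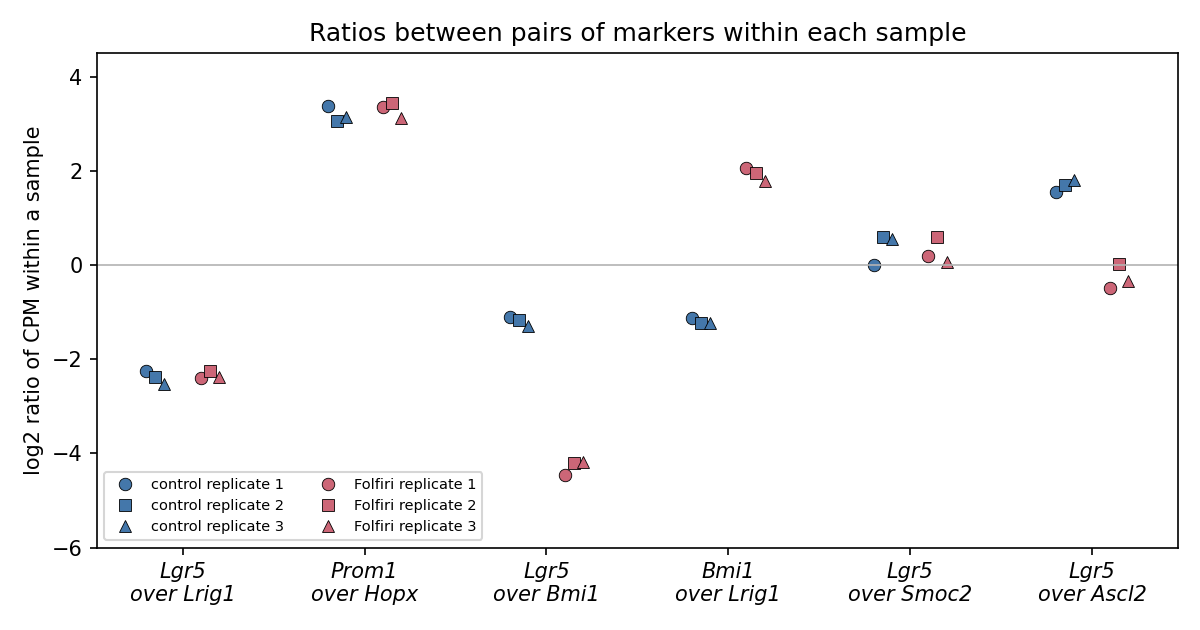
Log2 ratios of CPM between 6 pairs of markers, with 1 point for each sample, control in blue and Folfiri in red. Lgr5 over Lrig1, Prom1 over Hopx and Lgr5 over Smoc2 overlap between control and Folfiri, while Lgr5 over Bmi1, Bmi1 over Lrig1 and Lgr5 over Ascl2 lie apart.

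Levels can be compared between genes only per length, here as CPM per kilobase of annotated exons. In controls the order was Prom1 at 73.4 ± 5.42, Hopx at 38.0 ± 1.84, Slc12a2 at 29.3 ± 4.34, Lrig1 at 19.5 ± 0.480 and Bmi1 at 12.0 ± 0.339 (SD, n = 3 each). Ascl2 followed at 4.03 ± 0.670, Smoc2 at 2.37 ± 0.743, Lgr5 at 2.04 ± 0.150, Msi1 at 0.0975 ± 0.0547 and Olfm4 at 0.0319 ± 0.0195. Neighbors in this order had separate sample ranges except Smoc2 and Lgr5, and Msi1 and Olfm4. Lgr5 was thus a transcript of low abundance already in control MTOs, above 33.3% of the genes tested. After Folfiri the order became Prom1 at 33.4, Slc12a2 at 26.4, Bmi1 at 17.7, Hopx at 16.0, Lrig1 at 3.30, Ascl2 at 2.69, Smoc2 at 0.433, Lgr5 at 0.354, Olfm4 at 0.139 and Msi1 at 0.0593. Bmi1 thus stood above Hopx and Lrig1, the other reserve markers, per length. Over Hopx the margin was narrow, with the lowest Bmi1 sample at 17.34 and the highest Hopx sample at 17.29. The order of Bmi1 and Hopx per length also rests on the annotated exonic lengths used. The ranges of Lrig1 and Ascl2, of Smoc2 and Lgr5, and of Olfm4 and Msi1 overlapped after Folfiri.

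The genes whose centered log2 CPM lay closest to that of Lgr5 over the 6 samples, among 9474 with a mean of at least 10 CPM, were Lrig1, Prr15, Otop1, Pcca and Slc4a11, at distances from 0.244 to 0.334. Their log2 fold changes ranged from -2.78 to -2.42. The closest to Bmi1 were Tsn, Med6, Stat5b, Gle1 and Uggt1, at distances from 0.0409 to 0.0644 and with log2 fold changes from 0.53 to 0.61. With 6 samples in 2 groups this likeness mostly reflects a fold change of the same size.

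Other genes of the crypt base program moved in both directions. Of 22 such genes 18 were tested, and 10 were lower, 5 higher and 3 not past the threshold, with a median log2 fold change of -0.46. With scaling by total counts only, 9 were lower and 7 higher, with a median of -0.19, where 63.3% of all called genes were higher. Those that fell most were Kcnq1, a potassium channel gene, from 88.8 ± 3.94 to 13.4 ± 2.27 CPM (log2 fold change -2.73), Ephb2, a receptor that positions cells along the crypt, from 78.5 ± 9.79 to 12.5 ± 1.36 CPM (-2.65), Prelp (-2.38) and Nrn1 (-1.72). Those that rose included Cdca7 from 81.3 ± 1.43 to 205 ± 8.53 CPM (1.33), Rgmb, a BMP co-receptor (1.30), and Cdk6, a kinase of the G1 phase (1.29). Axin2, a feedback inhibitor and common readout of Wnt signaling, rose from 251 ± 16.6 to 390 ± 16.1 CPM (log2 fold change 0.63, SE 0.08, adjusted p = 2.24e-05, edgeR; SD, n = 3 each). Lgr5 and Axin2, both known as Wnt targets, therefore moved in opposite directions.

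**Figure D4:**
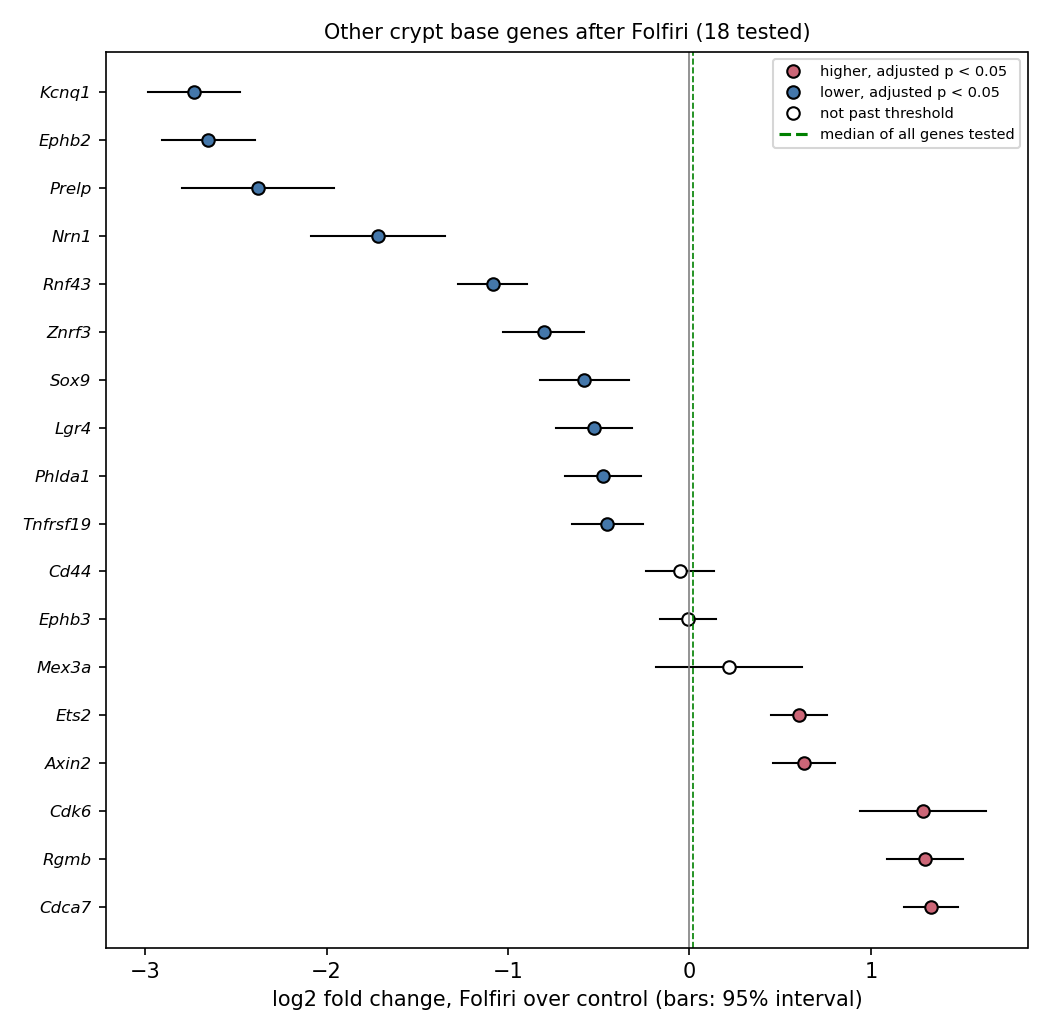
Log2 fold changes of Folfiri over control with 95% intervals from edgeR for the 18 tested genes of the further crypt base list, ordered by value, filled where the adjusted p was under 0.05. They run from -2.73 for Kcnq1 to 1.33 for Cdca7, with Axin2, Ets2, Cdk6, Rgmb and Cdca7 on the higher side.

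Lgr5 acts with other surface proteins that set how strongly a cell answers Wnt. The 9 genes listed for these receptors and their ubiquitin ligases were Lgr4, Lgr5, Lgr6, Rnf43, Znrf3, Fzd5, Fzd7, Lrp5 and Lrp6. The list holds only Fzd5 and Fzd7 of the Frizzled Wnt receptors, was chosen with earlier results known, and counts the marker Lgr5 itself. Of these 9 genes, 7 were lower (edgeR, against 38.8% of all genes tested), 0 were higher (against 40.3%) and 2, Lgr6 and Lrp6, did not pass. Beside Lgr5 the largest falls were those of Fzd7, a Wnt receptor, from 143 ± 16.9 to 54.0 ± 1.98 CPM (log2 fold change -1.41), Lrp5, a Wnt co-receptor, from 576 ± 36.0 to 232 ± 8.77 CPM (-1.31) and Rnf43, a ligase that removes Wnt receptors, from 193 ± 13.3 to 90.8 ± 8.63 CPM (-1.08; SD, n = 3 each). The counts were again 7 lower and 0 higher with scaling by total counts only. At an unadjusted p of 0.05 again 0 were higher, and 0 by the Wald test of DESeq2. These refits use the same 6 samples and the same list, so they do not extend the result to other Wnt receptors.

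Of 15 genes for PRC1 proteins, the complex to which Bmi1 belongs, 6 were higher, 5 lower and 4 not past the threshold, and these became 7 higher and 3 lower with scaling by total counts only. The highest log2 fold changes were those of Pcgf6 (1.75), a relative of Bmi1 in variant complexes, Cbx2 (1.18) and Phc2 (0.73). The lowest were those of Phc1 (-1.06) and Pcgf5 (-0.92). As the split of these genes was near that of all genes tested, it sets the partners of Bmi1 apart in neither direction.

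Relatives of the markers differed from them in several cases. Msi2, the abundant Musashi gene here, fell from 80.9 ± 4.13 to 15.9 ± 2.73 CPM (log2 fold change -2.35), whereas Msi1 was near the limit of detection. Lrig3 rose from 12.5 ± 1.28 to 28.1 ± 0.903 CPM (1.17) and Lrig2 fell (-0.89), so the Lrig genes moved in both directions. Olfm1 fell from 20.9 ± 1.39 to 2.26 ± 0.330 CPM (-3.21), and Prom2 fell with Prom1 (-0.70). Of the cation and chloride cotransporters related to Slc12a2, Slc12a7 (1.64) and Slc12a4 (0.82) rose.

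Of 4 tested genes of a list of further reserve and regeneration markers, Tert rose from 7.03 ± 0.424 to 12.4 ± 0.919 CPM (log2 fold change 0.82). Clu, a marker of revival cells, fell from 53.9 ± 8.30 to 19.8 ± 1.22 CPM (-1.44) and Krt19 fell (-0.62). Mex3a, a gene of slowly cycling Lgr5+ cells, stood at 4.85 ± 1.27 and 5.70 ± 0.538 CPM and did not pass (log2 fold change 0.22, adjusted p = 0.287, edgeR).

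Markers of cycling and of differentiated cells moved with these changes, and their part in the values of the stem cell markers was not tested. Of 12 proliferation genes 7 were lower and 3 higher, 7 and 5 with scaling by total counts only. Top2a (-1.65) and Mki67 (-1.58) fell, and the replication licensing genes Mcm2 (1.31) and Mcm3 (1.17) rose. Absorptive markers were low in both groups, summing to between 2.31 and 2.56 CPM in controls and between 3.89 and 4.64 CPM after Folfiri, and 3 of 8 in the table passed the filter. Fabp2 rose from 0.620 to 1.70 CPM and Krt20 did not pass the test, at 1.44 and 1.31 CPM. Aqp8, at 0.0613 and 0.598 CPM, passed the filter through the Folfiri samples alone. The goblet markers in the table summed to between 91.0 and 95.1 CPM and to between 24.5 and 26.7 CPM, and 4 of 7 in the table passed the filter. Agr2 fell from 54.4 to 6.79 CPM and Fcgbp from 36.4 to 7.97 CPM, and Clca1 rose from 2.04 to 10.6 CPM. Zg16, at 0.635 and 0.114 CPM, passed the filter through the control samples alone. The Paneth markers summed to between 26.2 and 28.2 CPM and to between 7.41 and 10.6 CPM, with both tested genes, Pla2g2a (-1.97) and Mmp7 (-0.69), lower, although Mmp7 did not pass with scaling by total counts only (-0.41, adjusted p = 0.0791, edgeR). Of the enteroendocrine and tuft markers Tac1, at 0.182 and 0.645 CPM, and Pou2f3, at 0.217 and 0.470 CPM, passed the filter through the Folfiri samples alone. Avil fell (-0.22), a call that was lost and turned in sign with scaling by total counts only (0.052, adjusted p = 0.565, edgeR).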

How the data were processed

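RNA sequencing of 3 control and 3 Folfiri-treated MTO54 samples was analysed. The authors aligned reads with STAR (version 2.5.2 in the submitters' processing notes) at default settings against GENCODE vM25, and after sorting with Sambamba they used Rsubread to obtain counts per gene, which were deposited raw. The strand setting and the treatment of reads with several positions are not given in the sources used here. Symbols, positions and exonic lengths came from GENCODE vM21 on the same build, GRCm38, and 24168 of 24190 genes matched.

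Counts were tested with edgeR 4.0.16 in R 4.3.3, with its default expression filter, TMM factors and the quasi-likelihood test on the group term, and Benjamini-Hochberg adjustment at 0.05. The procedure was tested on simulated counts in which most genes did not change. Most genes changed in these samples, so that simulation cannot show how the scaling behaves here. Alternatives were DESeq2 size factors, total counts, upper quartile scaling, other filters, the Wald test of DESeq2 1.42.0 (the package that the study used), a block for the replicate number, leaving out single replicates, and other placings of Msi1, Prom1 and Slc12a2. The markers and lists were chosen with earlier results of these data known. The genes named were drawn from all 10 markers, Mki67, in each list up to 4 rising and 4 falling genes, ranked by size of change among called genes whose groups did not overlap, genes of the epithelial, immune and stromal lists, and the 5 genes closest to Lgr5 and to Bmi1 by Euclidean distance of centered log2(CPM + 0.1). Genes outside this rule were chosen after their values were seen. The study calls the replicates biological, and the labels do not describe how the cultures were separated, so p-values measure the spread between these samples. Their counts differed by more than sampling noise within each group.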

Additional observations from a re-analysis of the deposited data

How the results depend on the processing

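The fall of Lgr5, Smoc2, Prom1, Hopx and Lrig1 and the rise of Bmi1 kept their direction and stayed past the threshold under all 13 alternatives that were run for each. Scaling by total counts only took Ascl2 below the threshold (-0.32) and turned the sign of Slc12a2, which passed in no fit, to 0.12. This scaling shifts the median of all genes by 0.28 (log2). It moved the crypt base median to -0.87 (-0.87 also over the same 5 genes) and the reserve median to -0.97, which was -1.19 with upper quartile scaling. Without a filter on low counts Olfm4 entered the crypt base group, whose median became -0.89 and its difference from the reserve median 0.38 in place of 0.10. Leaving out each replicate in turn gave 11021 to 12312 genes, 7 to 9 markers, 4 to 5 crypt base and 3 reserve markers called. The crypt base median then ranged from -1.16 to -0.76, the reserve median from -1.30 to -1.20 and their difference from 0.036 to 0.51. The fits without control replicate 1, 2 or 3 or Folfiri replicate 3 also tested and called Olfm4, which passed the filter there through the Folfiri samples alone, and over the same 5 crypt base genes, an alternative chosen after seeing the data, the median stayed between -1.18 and -1.08 and the difference between 0.032 and 0.20. Moving Msi1 to the crypt base gave a median of -0.95 and a difference of 0.30, and moving it to the reserve group gave a median of -0.998 and a difference of -0.14. Without Prom1 and Slc12a2 the crypt base median was -2.46 and the difference -1.21. The sign of the difference between the 2 groups therefore depends on which markers are counted. With the replicate number as a block 11499 genes and 7 markers were called, as against 11623 and 7 without it, and no marker gained or lost its call. Whether same-numbered samples were grown together is not given. The correlations of their deviations were 0.04, -0.19 and 0.04, and not every sample correlated best with its own number. With 3 samples in each group these correlations cannot decide whether the samples were paired. Depth limits Olfm4 most, whose controls had 1 to 4 counts, and 3 counts correspond to between 0.091 and 0.154 CPM.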
